A study of Mus musculus with 8 samples.

Results

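The difference between Gpr137b-KO and Gpr137b-WT clones of RAW264 cells in their response to IL-4 was examined gene by gene. For each of 4 clones the log2 signal without IL-4 was subtracted from the log2 signal with IL-4. A gene was taken as separated where both KO clones had a smaller difference than both WT clones, or both had a larger one, and where its signal was above background. Of 22206 gene probe sets on the array 9741 were above background, and 2344 of these were separated. In 1434 of them the KO clones lay below the WT clones, and in 910 the KO clones lay above them.

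RAW264 cells are a mouse line with macrophage properties. The arrays covered KO clones with IL-4 and without IL-4, and WT clones with IL-4 and without IL-4, with 2 clones of each genotype and 1 array for each clone and treatment, 8 arrays in all. KO and WT clones were all obtained through CRISPR/Cas9 editing of the same line, so every group had gone through editing and cloning. They are called KO1, KO2, WT1 and WT2 by genotype and replicate number. IL-4 was given for 48 h, in a medium without serum that contained BSA. The methods do not state whether cells without IL-4 were also moved to it, so IL-4 and the change of medium cannot be told apart, in either genotype. Each genotype is represented by 2 clones, so differences due to genotype and differences among clones cannot be told apart. Cells and RNA content were not counted, so a lower signal may mean less RNA per cell or fewer cells that hold it.

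IL-4 binds a receptor chain encoded by Il4ra. Jak kinases bound to the receptor then phosphorylate Stat6, which dimerizes, enters the nucleus and turns on genes of alternatively activated (M2) macrophages, such as lectins, chemokines and lipid uptake genes. Proteins of the Socs family and phosphatases such as Ptpn1 damp this signal. Gpr137b is a membrane protein of lysosomes, where it is known to act with the Rag GTPases that recruit mTORC1.

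The deposited signals are given here as log2. As the background, each array's 95th percentile over 23 antigenomic controls was taken. It lay between 6.64 and 6.78. A gene counted as above background where both arrays of at least 1 of the 4 groups exceeded it. Between 42.8 and 43.8% of probe sets exceeded the background of an array. The relative log expression spread less in KO arrays (interquartile range 0.249 to 0.270) than in WT arrays (0.282 to 0.410). Of 18 macrophage markers measured 17 were above background. The log2 of the summed signals of the 18 was 20.53 to 20.58 in KO arrays and 20.50 to 20.52 in WT arrays. The brightest markers weigh most in such a sum. None of 8 T and B cell markers or of 11 fibroblast and epithelial markers was above background.

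Gpr137b, the edited gene, gave a signal in every clone. In KO1 it read 10.00 with IL-4 and 10.24 without, and in KO2 10.82 and 11.12. In WT1 it read 10.32 with IL-4 and 11.50 without, and in WT2 11.93 and 11.67. KO clones were lower than WT clones without IL-4 and overlapped them with IL-4, because WT1 with IL-4 lay between KO1 and KO2. The IL-4 difference was −0.24 in KO1, −0.30 in KO2, −1.17 in WT1 and 0.26 in WT2, so the genotypes were not separated. Which part of the gene was edited is not stated in the sources used here, so its signal is no check of the labels where the probes lie outside it.

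Over all 22206 probe sets, limma found 0 with an adjusted p under 0.05 for the genotype difference of the IL-4 response, 0% of those tested, and the lowest adjusted p was 1. At an unadjusted p under 0.05 limma counted 338 probe sets (1.52%), in 112 of which KO was below WT (0.504%) and in 226 above it (1.02%). For any single gene, an exact permutation test of 2 clones against 2 cannot give a two-sided p below 0.333. The adjusted p from limma was 1 for every gene named below in this comparison. The fit did not pair the arrays of a clone, so its intervals also hold differences in level between the clones of a genotype. The values that separate the genotypes also chose the genes, so all that follows about them is a description.

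Of the genes above background, 14.7% had KO below WT and 9.34% had KO above WT. Together the separated genes made up 24.1%. A separation is the outcome that gives the permutation p of 0.333, so this share is no larger than random labels of the clones would give. The excess of genes with KO below WT depended on the background filter and on the scaling. Over all 22206 probe sets 12.5% had KO below WT and 13.9% had KO above WT. After quantile normalization 1245 genes had KO below WT and 1273 had KO above WT, so that KO was below WT in 49.4% of the separated genes, against 61.2% with the deposited scaling. Most separations were narrow. The gap, which is the distance between the nearest KO and the nearest WT difference, was under 0.1 on the log2 scale in 641 genes with KO below WT (44.7%) and in 443 with KO above WT (48.7%). A gap of at least 0.3 was found in 211 genes with KO below WT (2.17% of genes above background) and in 130 with KO above WT (1.33%). A gap of at least 1 was found in 6 genes with KO below WT (0.0616% of genes above background) and in 1 with KO above WT (0.0103%). Over all genes above background the KO clones differed from each other by a median of 0.247 in their IL-4 difference, and the WT clones by 0.399. Among the separated genes these medians were 0.155 and 0.176 where KO was below WT, beside a median gap of 0.113, and 0.138 and 0.187 where KO was above WT, beside a median gap of 0.105.

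**Figure D1:**
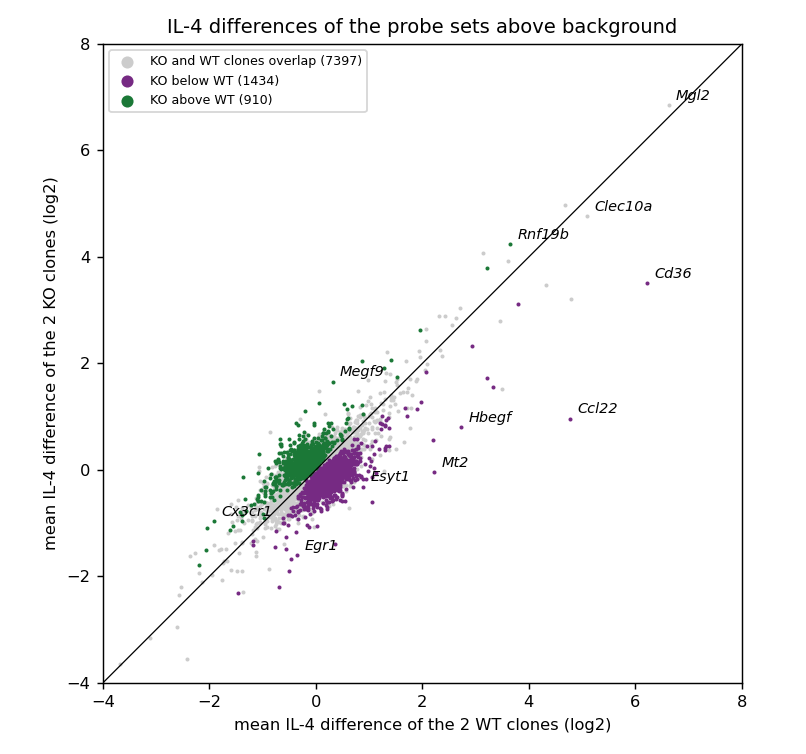
Mean within-clone IL-4 difference (log2 signal with IL-4 minus without) of the 2 KO clones, set against that of the 2 WT clones, for probe sets above background. Colours mark genes with KO below WT (1434), KO above WT (910) and overlapping genes. Ccl22, Cd36, Hbegf and Mt2 lie well below the line of equal response, whereas Mgl2 and Clec10a lie close to it.

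The signs of the IL-4 differences varied among the separated genes. Of the 1434 genes with KO below WT, 383 (26.7%) were lower with IL-4 in both KO clones and higher in both WT clones, 235 (16.4%) were higher in all 4 clones and 135 (9.41%) were lower in all 4. In the other 681 the clones of a genotype disagreed in sign. Of the 910 genes with KO above WT, 254 (27.9%) were higher in both KO clones and lower in both WT clones, 92 were higher in all 4 clones and 147 lower in all 4. The arrays on which the genotypes parted also varied. Among genes with KO below WT, 549 (38.3%) had lower levels in KO than in WT clones with IL-4, and 570 (39.7%) had higher levels in KO clones already without IL-4. In 404 genes (28.2%) the levels overlapped under both treatments, and the separation lay in the differences alone. Of all genes above background 17.5% had KO levels below WT levels with IL-4 and 17.1% had KO levels above WT levels without IL-4. The difference is made of these same levels, so higher shares among its genes follow from the choice.

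Ccl22 had the widest gap. It encodes a chemokine that attracts cells bearing the receptor Ccr4, and is a known IL-4 target in macrophages. With IL-4 it read 6.75 in KO1 and 5.13 in KO2, against 9.90 in WT1 and 9.03 in WT2. In the absence of IL-4 it read 5.43 in KO1 and 4.53 in KO2, against 4.59 in WT1 and 4.77 in WT2. All 4 arrays without IL-4 and KO2 with IL-4 were below background, and KO1 with IL-4 was just above its background of 6.74. Ccl22 was therefore detected in both WT clones with IL-4 and at most barely in KO clones. The within-clone difference was 1.32 in KO1 and 0.60 in KO2, against 5.31 in WT1 and 4.26 in WT2. The fitted genotype difference was −3.82 (95% interval −5.54 to −2.10, adjusted p = 1 from limma). Once signals below background were raised to it, the differences were −0.03 in KO1 and 0.07 in KO2, against 3.21 in WT1 and 2.40 in WT2, and the gap was 2.33 instead of 2.94. In WT clones Ccl22 was at least 6.99-fold higher with IL-4, as the mean with IL-4 over the background without it (adjusted p = 0.042 from limma), and in KO clones the IL-4 effect had an adjusted p of 1 from limma.

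The stretch before the Ccl22 start is shown because the letters that a Stat6 dimer is known to bind, TTC and GAA with a spacer of any 4 bases, were searched on both strands in RefSeq promoter windows of GRCm38.p6, which span 250 bases before to 50 after a start. It lies at chr8:94745434-94745683 on the plus strand and holds no such run, so no letter is in capitals.
Ccl22: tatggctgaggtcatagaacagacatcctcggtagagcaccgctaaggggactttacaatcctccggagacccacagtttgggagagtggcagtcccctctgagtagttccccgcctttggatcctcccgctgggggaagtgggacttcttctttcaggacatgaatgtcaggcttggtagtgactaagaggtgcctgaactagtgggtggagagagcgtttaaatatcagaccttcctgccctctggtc
Of all 32851 windows 6.95% held this Stat6-type site. Of the separated genes that matched a window, 68 of 1089 (6.24%) held it where KO was below WT and 45 of 658 (6.84%) where KO was above WT, against 6.41% of genes above background.

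Cd36 also differed more with IL-4 in WT clones. It encodes a scavenger receptor that takes up oxidized lipoproteins and long-chain fatty acids. On arrays with IL-4 it read 7.88 in KO1 and 8.30 in KO2, against 14.02 in WT1 and 8.67 in WT2. On those without IL-4 it read 4.82 in KO1 and 4.34 in KO2, against 6.60 in WT1 and 3.65 in WT2, all below background. WT1 with IL-4 stood far above the other arrays, and WT2 lay only slightly above the KO clones. As a mean of 2 clones over background, Cd36 was at least 2.58-fold higher with IL-4 in KO and at least 25.7-fold in WT clones. The adjusted p from limma was 1 in KO and 0.75 in WT clones. The WT bound does not hold for WT2 alone. Once signals below background were raised to it, the difference was 7.33 in WT1 and 2.03 in WT2, against 1.09 in KO1 and 1.64 in KO2. The fitted genotype difference of −2.71 was −1.51 without WT1 and −3.91 without WT2. With signals below background raised to it, the gap of 1.06 shrank to 0.39.

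Hbegf and Mt2 had the next widest gaps after Ccl22, at 1.68 and 1.36. Hbegf encodes a ligand of the EGF receptor. The signal with IL-4 was 8.91 in KO1 and 8.44 in KO2, against 9.92 in WT1 and 12.32 in WT2. The signal without IL-4 was 7.90 in KO1 and 7.85 in KO2, against 7.16 in WT1 and 9.62 in WT2. Every clone was higher with IL-4, by 1.01 in KO1 and 0.59 in KO2 and by 2.76 in WT1 and 2.70 in WT2, while WT2 was also the brightest clone without IL-4. The fitted difference was −1.93 (95% interval −4.72 to 0.87, adjusted p = 1 from limma). That fit did not pair the arrays of a clone, so the interval also holds the difference in level between WT1 and WT2. Of the 6 EGF receptor ligand genes measured, Hbegf was the 1 above background.

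Mt2 encodes a metallothionein, a small protein that binds zinc and copper. In cells given IL-4 it read 14.76 in KO1 and 14.16 in KO2, against 18.38 in WT1 and 15.35 in WT2. In cells without it the reading was 14.93 in KO1 and 14.09 in KO2, against 15.37 in WT1 and 13.92 in WT2. KO clones hardly differed between treatments (−0.17 and 0.07), whereas WT1 was higher with IL-4 by 3.01 and WT2 by 1.44. The fitted difference of −2.27 was −1.49 without WT1. Its neighbour in the family, Mt1, was separated in the same direction with a gap of 0.29, at −0.38 in KO1 and −0.26 in KO2, against 0.84 in WT1 and 0.03 in WT2. Of 7 genes above background in a list of metallothioneins and zinc transporters, chosen after the values were seen, these were the 2 separated genes. That is 28.6% with KO below WT and 0% above, beside 14.7 and 9.34% of all genes above background.

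The promoter of Mt2 is shown with the core of the metal response element in capitals, TGCACNC or TGCGCNC, the letters bound by the zinc-sensing factor Mtf1. It lies at chr8:94172368-94172617 on the plus strand. Counted from the start, the matches in the printed stretch begin at positions −223, −128 and −50, and the last of these is on the opposite strand. A further match begins at position 4, also counted from the start, and so lies past the printed stretch.
Mt2: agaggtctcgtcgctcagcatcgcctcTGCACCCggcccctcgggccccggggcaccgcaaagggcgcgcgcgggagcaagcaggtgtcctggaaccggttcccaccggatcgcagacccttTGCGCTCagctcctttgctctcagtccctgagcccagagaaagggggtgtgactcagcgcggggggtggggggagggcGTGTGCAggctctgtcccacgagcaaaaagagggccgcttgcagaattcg
Of all windows 12.6% held TGCACNC and 15.4% TGCGCNC, and of genes above background 14.5% and 30.6%. These motifs were also chosen after the values were seen.

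**Figure D2:**
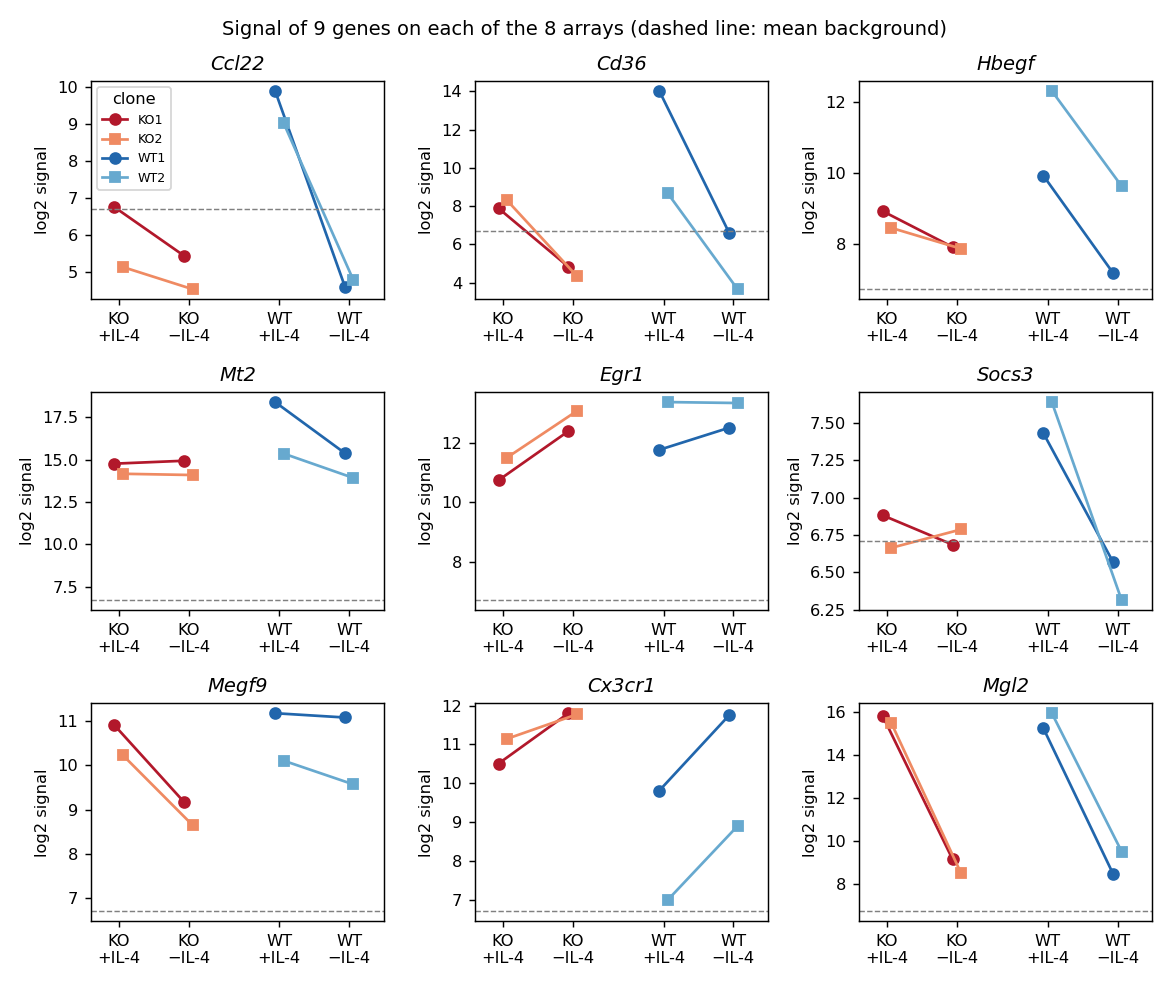
Log2 signal of single genes on each of the 8 arrays, with KO left of WT and IL-4 left of no IL-4, and lines that join the arrays of a clone. The dashed line marks the mean background of the arrays. Ccl22 exceeds 9 only in WT1 and WT2 with IL-4, at 9.90 and 9.03.

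The remaining genes with a gap of at least 1 were Esyt1, Mettl25 and Megf9. Esyt1 encodes a tether between the endoplasmic reticulum and the plasma membrane. It was lower with IL-4 in KO1 (−0.37) and KO2 (−0.26) and higher in WT1 (0.83) and WT2 (0.95), while its levels overlapped between genotypes under both treatments. Mettl25 was above background on 3 arrays only. Its highest reading was 7.02, and its gap of 1.03 was 0.21 with signals below background raised to it. Megf9, which encodes a membrane protein with EGF-like domains, was the 1 gene in which KO exceeded WT by a gap of over 1. Megf9 read 10.90 in KO1 and 10.23 in KO2 in the presence of IL-4, against 11.18 in WT1 and 10.11 in WT2. In its absence it read 9.17 in KO1 and 8.65 in KO2, against 11.08 in WT1 and 9.57 in WT2. The KO clones were thus lower than the WT clones without IL-4 and among them with it, with differences of 1.74 in KO1 and 1.58 in KO2, against 0.10 in WT1 and 0.54 in WT2.

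Egr1, an immediate early transcription factor gene, had KO below WT with a gap of 0.82. With IL-4, Egr1 read 10.74 in KO1 and 11.50 in KO2, against 11.76 in WT1 and 13.36 in WT2. In the absence of IL-4, Egr1 read 12.39 in KO1 and 13.06 in KO2, against 12.50 in WT1 and 13.33 in WT2. Both KO clones lay below both WT clones with IL-4, whereas without IL-4 KO2 lay between the WT clones. The difference was −1.65 in KO1 and −1.56 in KO2, against −0.74 in WT1 and 0.03 in WT2. Of 19 immediate early genes above background, a list chosen after the values were seen, 4 had KO below WT (Egr1, Dusp6, Fos and Jund) and Egr3 had KO above WT. These are 21.1 and 5.26%, beside 14.7 and 9.34% of all genes above background. Dusp6, a phosphatase that inactivates Erk kinases, differed by −1.31 and −1.21 in KO clones, against −0.68 and −0.43 in WT clones. Jund, a subunit of AP-1, was higher with IL-4 in all 4 clones, by 0.25 and 0.19 in KO clones and by 1.10 and 0.88 in WT clones.

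The other genes named for the widest gaps with KO below WT were Mterf4, Zfp433, Oxsm, Kcnn4, Ilvbl, Lrrc14 and Csta3, with gaps of 0.86 to 0.70, and Cpsf1 was next below at 0.67. In Mterf4, which encodes a mitochondrial ribosome assembly factor, the clones of a genotype nearly coincided. The difference was −0.59 in KO1 and −0.60 in KO2, against 0.34 in WT1 and 0.27 in WT2. KO levels of Mterf4 were higher than WT levels without IL-4 (8.09 and 8.07, against 7.31 and 7.31) and lower with it (7.50 and 7.47, against 7.65 and 7.58), so the order of the genotypes turned. Kcnn4, a calcium-activated potassium channel gene, differed by −0.02 and −0.03 in KO clones, against 0.71 and 0.71 in WT clones. Its levels overlapped under both treatments, since WT1 was the brightest clone with IL-4 and WT2 the dimmest. Csta3, a gene of the stefin family of cysteine protease inhibitors, was brighter in KO clones throughout. With IL-4 it read 9.83 and 8.38 in KO clones, against 6.87 and 8.07 in WT clones, and without IL-4 11.09 and 10.47 in KO clones, against 7.25 and 8.63 in WT clones.

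Among genes with KO above WT, Mustn1, Khk, Slc13a1, Zfp534, Tarbp1, G2e3, Armc5, Cbx7, Rad9a, Il15ra, Fam13a, Rhox9 and Cx3cr1 followed Megf9, with gaps of 0.76 to 0.61, and Senp8 was next below at 0.59. Khk, which encodes the fructose-phosphorylating enzyme ketohexokinase, was higher with IL-4 in KO clones (0.65 and 0.67) and slightly lower in WT clones (−0.11 and −0.17). Its level with IL-4 was 9.88 in KO1 and 9.69 in KO2, against 9.43 in WT1 and 8.82 in WT2. Il15ra, the receptor chain that presents interleukin-15, differed by 0.44 and 0.18 in KO clones, against −0.45 and −0.86 in WT clones. Cx3cr1, the fractalkine receptor gene, was lower with IL-4 in all 4 clones, by −1.29 and −0.63 in KO clones and by −1.94 and −1.90 in WT clones. WT2 was far dimmer for Cx3cr1 than the other clones, at 7.00 with IL-4 and 8.90 without. Several of these genes were dim. With signals below background raised to it, the gap was 0.13 for Cbx7, 0.17 for Zfp534 and 0.24 for Slc13a1.

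**Figure D3:**
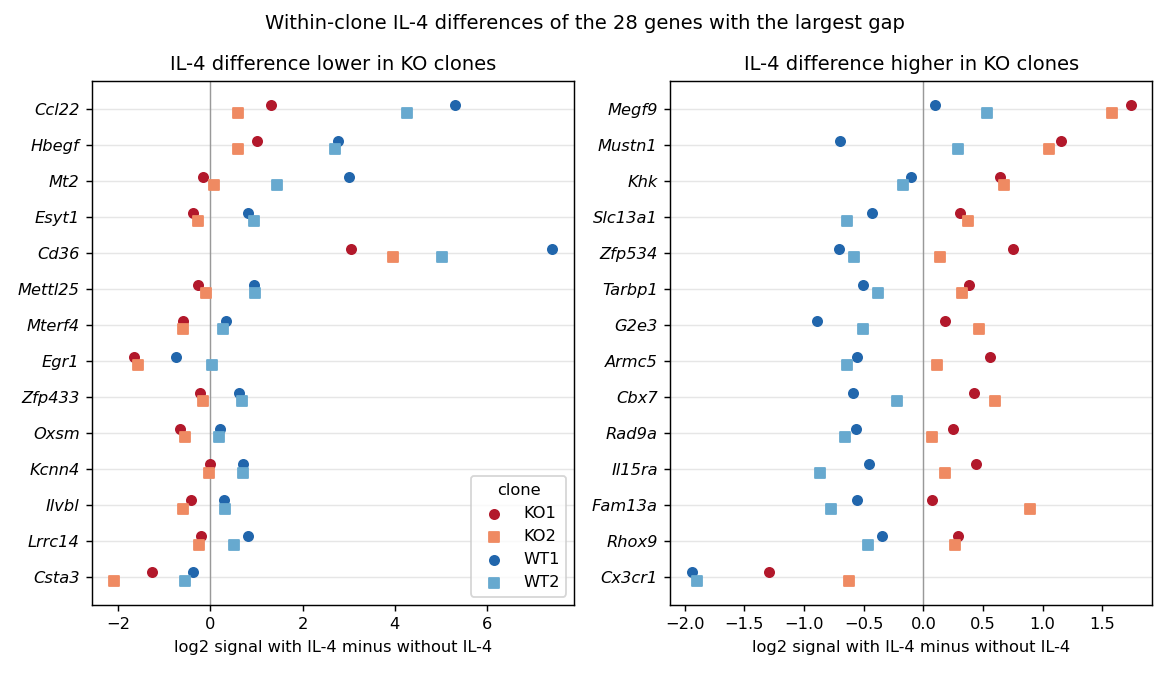
Within-clone IL-4 difference (log2) of the 28 genes with the widest gaps, 14 in each direction, in each of the 4 clones. In each gene both KO points lie on the same side of both WT points, by 2.94 in Ccl22 and by 0.61 in Cx3cr1.

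Of 8 IL-4 and M2 genes past the limma threshold for IL-4 in either genotype, 5 overlapped between the genotypes. In all 7 probe sets passed in KO clones (0.0315%) and 8 in WT clones (0.036%). Of 19 above-background genes in a list of 38 measured IL-4 and M2 genes, 5 had KO below WT (Ccl22, Cd36, Flt1, Il1rap and Ppargc1b) and 1 had KO above WT (Rnf19b), and quantile normalization gave the same counts but not the same genes, since Il1rap then overlapped. The shares, 26.3 and 5.26%, stood beside 14.7 and 9.34% of all genes above background. Among the 13 above background on all 8 arrays, with the deposited scaling, 3 had KO below WT and 1 above. The median genotype difference was −0.23 over the 19 genes, against −0.03 over all genes above background, and −0.03 over the 38 genes, against 0.003 over all probe sets. Mgl2, a lectin gene typical of M2 macrophages, was higher with IL-4 by 6.68 in KO1 and 7.01 in KO2, against 6.80 in WT1 and 6.45 in WT2. Its genotype difference was 0.22, with a 95% interval of −1.08 to 1.52. Clec10a, its relative, gave −0.33 (95% interval −1.44 to 0.78) and Smap2, a GTPase-activating protein gene, 0.16 (−0.67 to 0.99). These intervals reach to both sides of 0, and they do not show that the responses were equal.

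Other members of the list are described by clone, and none of the list passed the limma threshold for the genotype difference. Azin2, which regulates polyamine synthesis, differed by 2.89 in KO1 and 4.05 in KO2, against 3.59 in WT1 and 5.05 in WT2, so KO2 overlapped WT1. It was below background without IL-4 in every clone, and with signals raised to background the KO clones lay below the WT clones by 0.41. Rnf19b, an E3 ubiquitin ligase gene, was higher with IL-4 by 4.08 in KO1 and 4.40 in KO2, against 3.56 in WT1 and 3.74 in WT2. With IL-4 its level overlapped between genotypes, and without IL-4 it was lower in KO clones (10.53 and 10.40) than in WT clones (11.13 and 12.21). Il1rap, the accessory chain of the interleukin-1 receptor, was separated by less than 0.01. Flt1, a VEGF receptor gene, differed by 1.97 and 1.16 in KO clones, against 4.48 and 2.17 in WT clones, and the gap was 0.20. Itgax, a dendritic cell marker, read 10.64 in WT1 with IL-4 and at most 7.19 elsewhere, and overlapped between genotypes.

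Of 26 above-background genes among 30 measured members of the IL-4 receptor and Stat6 pathway, 6 had KO below WT (Ptpn1, Jak1, Pik3cd, Tyk2, Stat5a and Socs3) and 0 had KO above WT. These are 23.1 and 0%, beside 14.7 and 9.34% of all genes above background. After quantile normalization these counts were 3 and 1, beside 12.8 and 13.1% of all genes above background. Among the 22 above background on all 8 arrays, with the deposited scaling, 4 had KO below WT and 0 above. Socs3, an inhibitor of cytokine receptor signaling, was the widest. Its signal with IL-4 was 6.88 in KO1 and 6.66 in KO2, against 7.43 in WT1 and 7.64 in WT2. Its signal without IL-4 was 6.68 in KO1 and 6.79 in KO2, against 6.56 in WT1 and 6.31 in WT2. Both WT clones exceeded the KO clones with IL-4 and lay below them without it, though all readings were near background. Socs3 passed the background filter only through WT clones with IL-4, where it was highest. Its genotype difference was −1.06 (95% interval −1.75 to −0.37, adjusted p = 1 from limma). Ptpn1, the phosphatase, differed by −0.54 and −0.63 in KO clones, against −0.24 and 0.02 in WT clones.

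Socs3 is a known target of several Stat factors, so its promoter was searched for the shorter Stat site TTCNNNGAA, whose spacer is a base shorter. It lies at chr11:117969367-117969616 on the minus strand, and the match, in capitals, begins at position −154.
Socs3: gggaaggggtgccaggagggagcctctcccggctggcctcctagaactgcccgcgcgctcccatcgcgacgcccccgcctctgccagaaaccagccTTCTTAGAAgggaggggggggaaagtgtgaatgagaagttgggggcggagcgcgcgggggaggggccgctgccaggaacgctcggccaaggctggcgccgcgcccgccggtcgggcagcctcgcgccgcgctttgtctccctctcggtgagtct
Of all windows 8.3% held TTCNNNGAA. It was found in 9.46% of genes with KO below WT, in 9.88% with KO above WT and in 8.5% of genes above background.

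With the deposited scaling, interferon-stimulated genes were the list with the highest share of separated genes among those with at least 10 genes above background. Of 34 genes above background among 43 measured, 18 (52.9%) had KO below WT and Irf1 alone (2.94%) had KO above WT, beside 14.7 and 9.34% of all genes above background. After quantile normalization 12 of 34 had KO below WT and 1 above, beside 12.8 and 13.1% of all genes above background. This list then no longer ranked highest, since 1 and 10 of 22 cholesterol and fatty acid synthesis genes were separated. Among the 27 above background on all 8 arrays, with the deposited scaling, 15 had KO below WT and 1 above. Over the 34 genes the median IL-4 difference was −0.34 in KO1 and −0.35 in KO2, against 0.21 in WT1 and −0.20 in WT2. The median genotype difference was −0.43 over the 34 genes and −0.37 over all 43, against −0.03 over all genes above background. WT2 was thus closer to the KO clones than WT1 was. The median difference between clones was −0.53 for KO1 and −0.63 for KO2 against WT1, and −0.19 and −0.23 against WT2. None of these genes passed in the limma fit.

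Among these genes Irf7, the transcription factor that maintains interferon expression, showed where the clones differed. Irf7 with IL-4 read 11.46 in KO1 and 10.57 in KO2, against 7.57 in WT1 and 10.91 in WT2. Irf7 without IL-4 read 11.76 in KO1 and 11.29 in KO2, against 7.54 in WT1 and 10.67 in WT2. WT1 was far dimmer than the other clones under both treatments, and the IL-4 difference of −0.30 and −0.72 in KO clones, against 0.04 and 0.24 in WT clones, was small beside it. Ifih1, a sensor of viral RNA, was higher in KO than in WT clones without IL-4 (11.64 and 11.72, against 9.98 and 11.57) and overlapped with IL-4. Oasl2, Dtx3l and Psmb8 followed the same order of levels. Psmb8, a subunit of the immunoproteasome, differed by −0.67 and −0.33 in KO clones, against 0.29 and 0.01 in WT clones. Oas1g, an oligoadenylate synthetase gene, had a difference of 1.25 in WT1 but −0.26 in WT2, against −0.71 in KO1 and −0.45 in KO2.

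The core of the interferon-stimulated response element, GAAA repeated after any 2 bases, was found in 7 of 13 interferon-stimulated genes with KO below WT that matched a promoter window (53.8%). It was found in 17 of 33 measured genes of the list that matched (51.5%) and in 3.44% of all windows. The list is made of genes known to respond to interferon, so the share describes the list and not the separation.

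**Figure D4:**
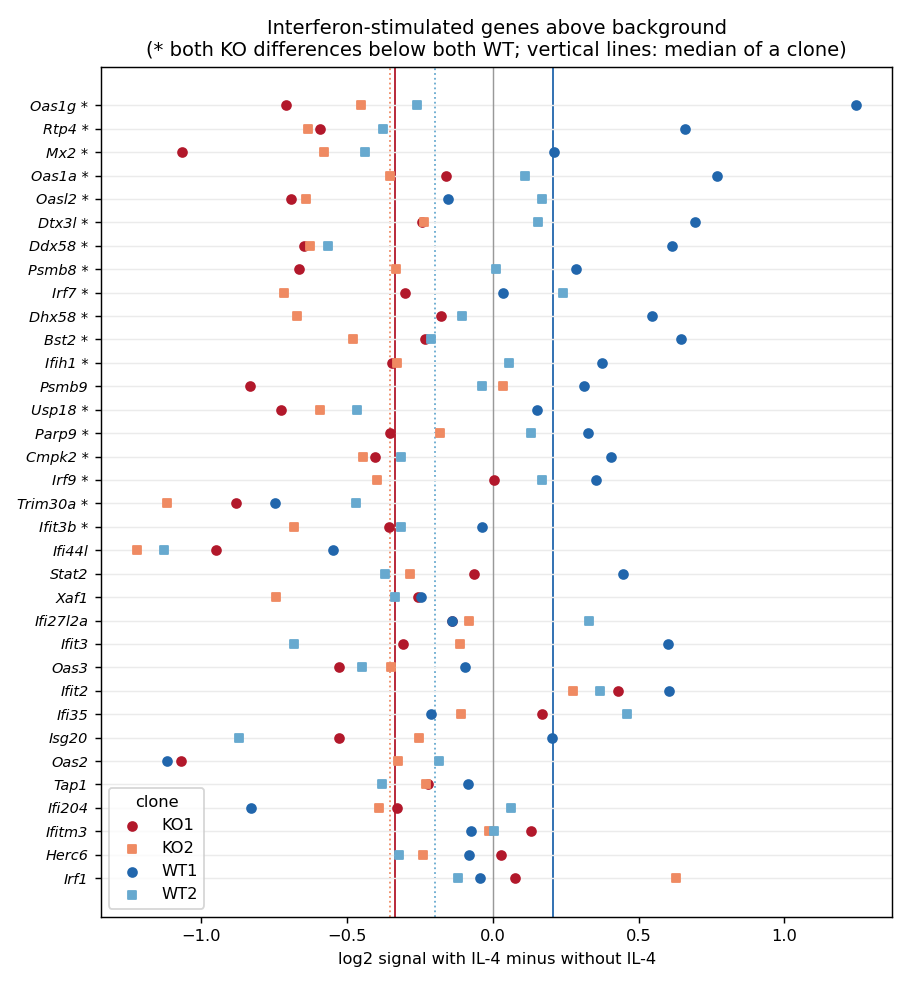
Within-clone IL-4 difference (log2) of the interferon-stimulated genes above background in KO1, KO2, WT1 and WT2, with an asterisk at genes with KO below WT and vertical lines at the median of each clone. Most KO points lie below 0, and the WT1 points lie higher than those of WT2, with list medians of −0.34 in KO1, −0.35 in KO2, 0.21 in WT1 and −0.20 in WT2.

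Of 44 lysosome and mTORC1 genes above background, 14 (31.8%) had KO below WT and 3 (6.82%) had KO above WT, beside 14.7 and 9.34% of all genes above background. The wider ones were Ctsk, the cathepsin K gene, with a gap of 0.61, Gaa, the lysosomal alpha-glucosidase gene, with 0.51, and Mitf, a transcription factor of lysosomal genes, with 0.40. Gaa differed by −0.30 and −0.46 in KO clones, against 0.28 and 0.20 in WT clones. Of 25 glycolysis and hypoxia genes 8 (32.0%) had KO below WT and 0 above, of which Pgam1 had the widest gap, 0.42. After quantile normalization these counts were 12 and 3 for lysosome and mTORC1 genes, and 9 and 2 for glycolysis and hypoxia genes. Of 22 cholesterol and fatty acid synthesis genes 1 (4.55%) had KO below WT and 4 (18.2%) had KO above. Quantile normalization raised the count with KO above WT to 10. With that scaling 12.8 and 13.1% of all genes above background had KO below and above WT.

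Of 26 inflammatory genes above background, 8 (30.8%) had KO below WT, among them Il1b and Lcn2, which encodes an iron-siderophore binding protein. KO was above WT in 3 (11.5%), Nos2, Cd80 and Tnf, beside the same 14.7 and 9.34%. Among the 22 above background on all 8 arrays, with the deposited scaling, 4 had KO below WT and 3 above. After quantile normalization 8 of 26 had KO below WT and 4 above, beside 12.8 and 13.1% of all genes above background. Lcn2 differed by −1.52 in KO1 and −1.26 in KO2, against 1.41 in WT1 and −0.68 in WT2, so the WT clones differed in opposite directions. Of 30 cell cycle genes above background 1 had KO below WT and 1 had KO above (3.33% each). None of the 4 genes of the Gpr137 family was separated.

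In chemokines, 3 of 14 genes above background had KO below WT (Ccl22, Ccl5 and Ccl6) and Ccl25 had KO above WT. These shares, 21.4 and 7.14%, rest on few genes and stand beside 14.7 and 9.34% of all genes above background. Ccl22 passed the background filter only through WT clones with IL-4, where it was highest. Among the 10 chemokines above background on all 8 arrays, 1 had KO below WT and 1 above. Ccl6 differed by −1.15 and −2.64 in KO clones, against 0.02 and −1.02 in WT clones, with a gap of 0.13. Ccl5, an attractant of T cells and monocytes, differed by −0.07 and 0.13 in KO clones, against 0.19 and 1.25 in WT clones. Neither approached the separation of Ccl22.

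Of the neutrophil and dendritic cell markers above background, S100a8 alone was separated with the deposited scaling. With IL-4, S100a8, a neutrophil marker, read 6.45 in KO1 and 7.22 in KO2, against 5.52 in WT1 and 5.33 in WT2, and 7.68 and 10.40 in KO clones without IL-4, against 6.35 and 5.90 in WT clones. It was separated with KO below WT, 1 of 2 neutrophil markers above background among 9 measured. S100a8 was below background on every WT array and in KO1 with IL-4. It therefore passed the background filter only through the KO clones without IL-4, where it was highest. The log2 of the summed signals of the neutrophil markers was 9.87 to 11.00 in KO arrays and 8.89 to 12.12 in WT arrays. That of the 12 dendritic cell markers, 2 of them above background, was 8.88 to 9.12 in KO arrays and 8.76 to 10.98 in WT arrays, highest in WT1 with IL-4. Their part in the results was not tested. Of 17 macrophage markers above background, Cd14 had KO below WT (5.88%), and Cebpa and Aif1 had KO above WT (11.8%). These shares stand beside 14.7 and 9.34% of all genes above background.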

How the data were processed

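Total RNA of 8 RAW264 samples was hybridized to mouse Clariom S arrays. The authors normalized the scans by SST-RMA (RMA in the submitters' notes). The deposited intensities are linear, and their log2 was taken here. The authors' genome build was not given in the sources used here. The table has 28846 rows, 6640 of them for controls. Of the 22206 gene probe sets, 19572 have 1 symbol in the platform annotation and 2634 are unnamed here.

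The genotype difference of the IL-4 response was tested by limma 3.58.1 under R 4.3.3. All 8 arrays entered the fit with 1 mean per group and no block. P-values were adjusted by Benjamini-Hochberg across the 22206 probe sets, at a threshold of 0.05. The number of arrays limits the precision. Both arrays of a clone are paired by the clone identity in the labels. Their deviations from the group means correlated at 0.161 in KO and 0.354 in WT clones. A clone block was tried as an alternative.

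Within-clone differences, gaps and list counts have no test. The members and lists were chosen with earlier results of these data known. Named genes were Gpr137b, the 14 genes with the widest gap in each direction that carry a regular symbol, list members of IL-4, receptor, chemokine or interferon genes with a gap of at least 0.3, and IL-4 and M2 genes past the threshold for IL-4 in either genotype. For a gene with several probe sets the brightest was used. Genes singled out beyond this rule, among them Mt1, Flt1, Itgax, Lcn2 and S100a8, were chosen after their values were seen.

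The alternatives included quantile normalization, dropping the dimmest 40%, eBayes with trend and robust, a fixed or random clone block, other background rules, a larger gap, a fold threshold and leaving out each clone. Signals below background were also raised to it. For the count of probe sets past the threshold this was added after seeing the data, as were the list counts after quantile normalization and on all 8 arrays. Promoters were taken from RefSeq, GRCm38.p6.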

Additional observations from a re-analysis of the deposited data

Results flagged for a closer look

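In 24 of the named genes both KO clones moved one way with IL-4 and both WT clones the other. The genotype difference of each had a limma adjusted p of 1, and the values below are that difference on the log2 scale, KO minus WT. These genes were named for their gaps in the same differences, so opposite signs follow in part from that choice. Of the 9741 genes above background, 383 were lower in both KO and higher in both WT clones, and 254 the reverse.

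KO clones were lower and WT clones higher with IL-4 in Esyt1 (−1.20), Mettl25 (−1.13), Mterf4 (−0.90), Zfp433 (−0.84), Oxsm (−0.81), Kcnn4 (−0.73), Ilvbl (−0.81) and Lrrc14 (−0.88). The same order was seen in the interferon-stimulated genes Ifih1 (−0.55), Irf7 (−0.65), Parp9 (−0.50), Dtx3l (−0.66) and Psmb8 (−0.65). After quantile normalization the gap fell from 0.385 to 0.162 in Ifih1 and from 0.313 to 0.063 in Parp9. It fell from 0.393 to 0.151 in Dtx3l and from 0.344 to 0.126 in Psmb8, and rose from 0.337 to 0.389 in Irf7. Some clone differences were close to 0, as in Kcnn4 in KO1 (−0.02) and KO2 (−0.03), Irf7 in WT1 (0.04) and Psmb8 in WT2 (0.01). With signals below background raised to it, Mettl25 differed by only −0.04 in KO1 and −0.03 in KO2.

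KO clones were higher and WT clones lower with IL-4 in Khk (0.80), Slc13a1 (0.88), Zfp534 (1.09), Tarbp1 (0.80), G2e3 (1.02), Armc5 (0.93), Cbx7 (0.92), Rad9a (0.78), Il15ra (0.97), Fam13a (1.15) and Rhox9 (0.69). In 4 of these genes the opposite signs rest on signals below background. Zfp534 and Fam13a were above background on 0 KO arrays. With signals below background raised to it, Slc13a1 differed by 0.03 in WT1 and Cbx7 by 0.07 in WT2, so a WT clone of each was no longer lower. Groups of 2 clones are too small for a check of single samples that stand apart.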

How the results depend on the processing

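Limma found 0 probe sets past the adjusted threshold with the deposited scaling, and also after quantile normalization, without the dimmest 40%, with trend and robust eBayes, with signals below background raised to it and without each clone. The lowest adjusted p was 0.124, without WT2. Selecting by an unadjusted p under 0.05 and a change of 2-fold or more gave 110. Unadjusted counts lay between 113 and 1672 when a clone was left out. With the clone as a fixed replicate block 0 passed, with 455 at an unadjusted p under 0.05, and as a random replicate block 0 and 501, so the pairing changed no call. The 1434 genes with KO below WT became 6 with a gap of at least 1, and 2489 to 4842 when a clone was left out, and the 910 with KO above WT became 1, and 1972 to 4370. With a clone less, the criterion is easier to meet. Other background rules and quantile normalization stayed within 1.5 times of each count, but the genes were not all the same. After quantile normalization 982 of the 1434 genes still had KO below WT, and 758 of the 910 still had KO above WT. Of 450 values of named genes under alternatives 2 changed sign, Gpr137b without WT1 (−0.53, and 0.90 without WT2) and Smap2 without KO1 (−0.016, and 0.33 without KO2). The lowest adjusted p of any named gene was 0.217, for Cd36 without WT2. The median over the 38 measured IL-4 and M2 genes was −0.03 with all clones, and −0.101 to −0.056 when a clone was left out. Without the dimmest 40% of probe sets the median over the genes kept was −0.23. A signal raised in WT clones alone can pass that filter. The median over the 43 measured interferon-stimulated genes was −0.37 with all clones, and −0.55 to −0.20 when a clone was left out. A fit without a clone leaves 1 array in 2 groups, assumed to vary like the others. Signals near background, such as those of Ccl22 in KO clones, limit what a difference can show.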

Other observations

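Of 21 ATF4 target genes of the amino acid response above background, 4 (19.0%) had KO below WT and 2 (9.52%) had KO above, near the 14.7 and 9.34% of all genes above background. Mthfd2, a mitochondrial enzyme of folate metabolism, differed by −0.39 and −0.55 in KO clones, against 0.07 and 0.62 in WT clones. Nupr1, a stress-induced chromatin protein gene, differed by −0.11 and −0.04 in KO clones, against −1.18 and −0.49 in WT clones.

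Of 6 osteoclast genes above background 1 was separated in each direction (16.7% each), beside 14.7 and 9.34% of all genes above background. Atp6v0d2, a subunit of the proton pump also found in macrophage lysosomes, was higher with IL-4 by 2.09 in KO1 and 1.74 in KO2, against 1.44 in WT1 and 1.11 in WT2. Its level was lower in KO than in WT clones under both treatments, at 15.40 and 15.35 against 16.39 and 16.55 with IL-4. Of 16 arginine and polyamine genes above background 1 had KO below WT and 1 had KO above (6.25% each), beside the same 14.7 and 9.34%. The share of genes with KO below WT was 11.9% on chromosome 2 and 18.2% on chromosome X, the lowest and highest apart from chromosome Y, where 0 of 11 genes were separated.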
